A study of Mus musculus with 8 samples.

Results

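The kidney of SDHD-ESR mice was set against the kidney of wild-type (+/+) mice on 4 two-colour oligonucleotide arrays, which are 4 of the 8 arrays of the series. In SDHD-ESR mice 1 Sdhd allele was null and the other floxed, and a Cre recombinase was present that is fused to a mutated estrogen receptor, which deletes the floxed allele once tamoxifen is given. The other 4 arrays held kidney RNA of +/- littermates with the same 1 null and 1 floxed allele but no Cre. The common reference on every array was a pool of kidney RNA from 8 +/+ littermates, which carried 1 floxed and 1 normal allele and no Cre. All mice were males of a 129/SvJ background, and all were given tamoxifen (100 µg/g, 4 daily doses starting at 9 weeks of age). Kidneys were taken at 10 weeks, 1 week after dosing began. With the RNA of 2 mice on an array, 8 mice stood behind either group. Against the pool, the loss of Sdhd, the null allele and the presence of Cre cannot be told apart, and +/- arrays lack only the Cre and what it deletes. The pool was 1 sample, so a test of the ratio against 0 leaves out the spread of +/+ mice.

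Sdhd encodes a membrane anchor of succinate dehydrogenase, the complex II of the respiratory chain that also oxidizes succinate to fumarate in the Krebs cycle. Without an anchor the complex does not assemble on the inner mitochondrial membrane. The tubules of the kidney, the proximal tubule above all, depend on mitochondrial respiration for the reabsorption of salt, sugar, phosphate and amino acids, and the proximal tubule is also a site of amino acid breakdown, gluconeogenesis and drug excretion.

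Values below are log2 ratios to the pool, each array having been set to a median of 0. The sign of every array is opposite to that of the deposited table, in which the Sdhd feature was positive throughout, and the direction of all values is therefore likely, not given. The study's own tables do not share 1 direction, since its table of the most changed kidney genes runs the same way as the values here and its list of hypoxia genes the opposite way. Before centring, the array medians were 0.00, -0.06, 0.38 and 0.94 for SDHD-ESR replicates 1 to 4 and -0.19, -0.19, 0.20 and 0.41 for +/- replicates 1 to 4. Slide 1 carried replicates 1 and 2 of both groups, slide 2 the replicates 3 and 4, and the medians of slide 2 were higher by 0.59 (p = 0.0286 in a two-sided exact permutation test, as small as 4 against 4 arrays allow). Within each slide +/- RNA was on the positions 1 and 2 and SDHD-ESR RNA on the positions 3 and 4, so genotype and slide position cannot be told apart. Across features, which are not independent replicates, Pearson's r of array pairs was 0.393 to 0.518 within SDHD-ESR and 0.423 to 0.477 within +/-. Between the groups it was 0.343 to 0.469 (16 pairs), which overlaps both.

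After centring, limma called 3369 genes higher in SDHD-ESR kidneys than in the pool (16.5% of 20462 tested) and 1608 lower (7.86%), or 24.3% in either direction, at a Benjamini-Hochberg adjusted p of 0.05 or less. The rises were many and small. Their median was 0.34 in SDHD-ESR and 0.26 in +/-, and 72 of the 3369 reached a log2 ratio of 1. The falls were fewer and larger, with a median of -0.83 in SDHD-ESR and -0.50 in +/-, and 642 of the 1608 reached -1. Without centring the count was 91 higher (0.445%) and 23 lower (0.112%), with the array medians as far apart as given above. The mean of the SDHD-ESR array medians, 0.32, is what centring takes off, and every direction below is relative to it. Of 155 genes called and followed by name here, 28 were called in both forms. They are the genes said below to be called with and without centring, together with Saa2, Abcc3, Gm5678, Rdh16, Sult1d1, Saa3 and Fga. For all others the call rests on centring. Counts of list members called are to be read beside the 16.5% higher and 7.86% lower over all genes, and list medians beside 0.02 over all genes in either group.

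**Figure D1:**
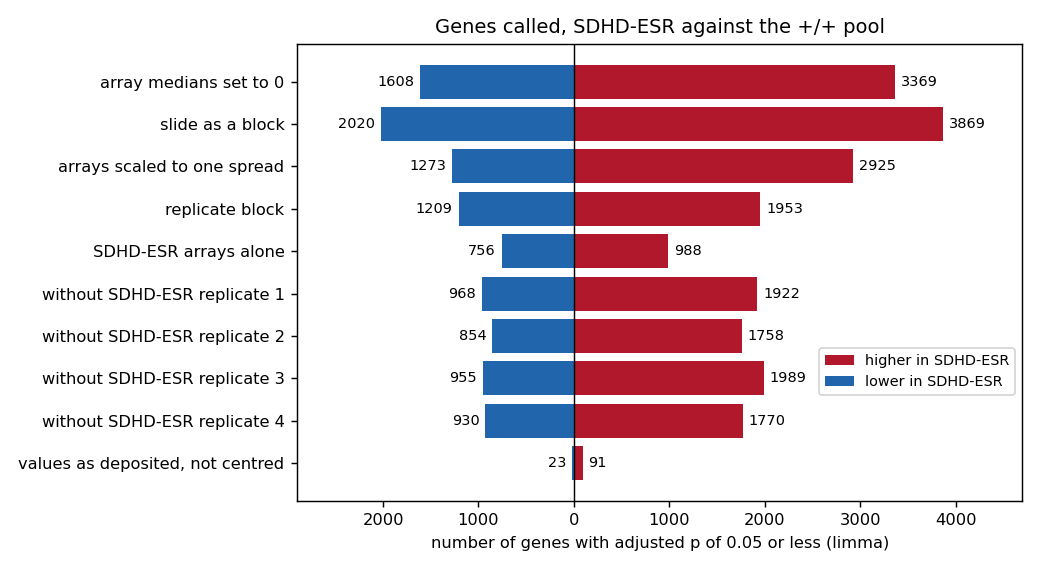
Number of genes called higher (red, to the right) and lower (blue, to the left) in SDHD-ESR kidney against the +/+ pool (limma, adjusted p of 0.05 or less), with the fit as reported on top and alternative settings under it. The counts are 3369 and 1608 with array medians set to 0, 988 and 756 from the SDHD-ESR arrays alone, and 91 and 23 for the values as deposited.

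Whether a difference from the pool was particular to SDHD-ESR was tested as SDHD-ESR minus +/- in the same fit, where the pool cancels. Of 20462 genes 3 were called (0.0147%), and these were Tex12, Kynu and Tmprss9. At an unadjusted p of 0.05 or less 823 genes lay higher (4.02%) and 781 lower (3.82%) than in +/-, which is the background for every such count below. The arrays of the 2 groups did not overlap in 592 genes that were higher (2.89%) and 573 that were lower (2.80%) in SDHD-ESR. Of the genes called higher against the pool, 413 of 3369 also had an unadjusted p of 0.05 or less against +/-, and of those called lower 448 of 1608. Both comparisons use the same SDHD-ESR values, so a share above the background is partly built in and is not separate evidence.

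The targeted gene stood at -4.26, -3.65, -5.04 and -3.25 on the 4 SDHD-ESR arrays, against -0.79, -0.40, -0.92 and -0.93 on the +/- arrays. The groups were far apart, with every SDHD-ESR array under the lowest +/- array. The SDHD-ESR mean of -4.05 ± 0.78 (SD, n = 4) is 6.03% of the pool, and the +/- mean of -0.76 ± 0.25 (SD, n = 4) is 59.0%. Because the sign was set by this gene, its direction is a description, while its size was not used (limma against the pool, adjusted p = 0.000993, and called with and without centring). The sources used here do not say whether its single feature lies inside the floxed stretch. In a bulk sample, less RNA per cell and fewer cells that carry the RNA cannot be told apart, here and for every gene below.

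Of the other subunits of complex II little could be read. Sdha, the flavoprotein, was at 0.06 ± 0.09, and Sdhc, the other membrane anchor, at -0.00 ± 0.24 (SD, n = 4 each), and neither was called (adjusted p = 0.525 and 0.986). With its features near 0 left out, Sdhc was at 0.31 and called higher (adjusted p = 0.00626). Sdhb, the iron-sulfur subunit, was at 0.00, 0.06, -0.38 and -0.80 in SDHD-ESR and at 0.19, 0.19, -0.20 and -0.41 in +/-. These are close to the centring of each array with its sign turned, as its features lay near 0 in the table. The single feature of Sdha and 1 of 2 features of Sdhc also lay near 0 on at least 2 arrays, so these values carry little information. The assembly factors Sdhaf1 and Sdhaf4 were called higher (0.27 ± 0.10 and 0.37 ± 0.07, SD, n = 4 each), and both lay at least as high in +/- (0.32 and 0.54). Sdhaf1 missed the threshold without SDHD-ESR replicates 1, 2 or 4 (adjusted p up to 0.0706).

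Tex12, a protein of the synaptonemal complex that holds paired chromosomes together in meiosis, had the largest rise among genes called with 1 sign on all SDHD-ESR arrays. It was at 3.09, 3.00, 3.11 and 2.65 on SDHD-ESR arrays, against -0.42, -1.20, -0.46 and -0.65 on +/- arrays. The 4 SDHD-ESR arrays lay close together and far above the pool, whereas all 4 +/- arrays lay below it. The mean of 2.96 ± 0.21 (SD, n = 4) is 7.80-fold the pool (adjusted p = 0.000424, called with and without centring), and the difference from +/- was 3.65 ± 0.20 (SE, adjusted p = 0.00159). Each of its 10 features was called, with means from 2.37 to 3.43. Tex12 comes next to Sdhd when the protein-coding genes of the RefSeq annotation of the mouse genome are ordered by start coordinate. Genes can overlap in such an order, and whether another gene lies between Tex12 and Sdhd was not looked up. Of the 20 protein-coding genes within 10 places of Sdhd in this order, 4 were called higher and 4 lower. The 19 other than Tex12 ran from -1.91 to 0.46. On the other side of Sdhd, Timm8b, a chaperone of inner membrane proteins, was at -0.21 ± 0.29 and not called (adjusted p = 0.279), and its feature lay near 0. Following Tex12 in the same order, Il18, an inflammatory cytokine, was called lower (-0.43 in SDHD-ESR and 0.12 in +/-, adjusted p = 0.0348). Following Timm8b, Nkapd1 (0.30) and Pih1d2 (0.01) were not called. Further out, Bco2, a mitochondrial carotenoid dioxygenase, was at -0.67 ± 0.10, and Dlat, a subunit of pyruvate dehydrogenase, at 0.46 ± 0.19 (SD, n = 4 each). Bco2 and Dlat lay at -0.49 and 0.42 in +/-.

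The 250 bases before the annotated start of Sdhd and of Tex12 (RefSeq, GRCm38.p6, both on the minus strand) are shown because these nearby genes moved in opposite directions. They are at chr9:50603850-50604099 for Sdhd and chr9:50561269-50561518 for Tex12. Capitals mark matches to CACGTG, an E-box, and to GGCGGGAA, the core of an E2F site, searched on both strands after the sequences had been seen.
Sdhd: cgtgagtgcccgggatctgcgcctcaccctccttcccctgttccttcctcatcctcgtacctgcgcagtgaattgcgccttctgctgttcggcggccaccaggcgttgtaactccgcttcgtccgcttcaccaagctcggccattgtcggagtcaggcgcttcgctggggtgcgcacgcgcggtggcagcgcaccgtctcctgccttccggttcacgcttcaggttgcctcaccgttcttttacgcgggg
Tex12: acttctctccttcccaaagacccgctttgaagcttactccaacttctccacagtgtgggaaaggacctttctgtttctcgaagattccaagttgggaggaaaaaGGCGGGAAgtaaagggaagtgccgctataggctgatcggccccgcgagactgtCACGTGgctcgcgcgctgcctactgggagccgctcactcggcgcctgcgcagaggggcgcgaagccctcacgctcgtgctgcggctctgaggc
The Tex12 stretch holds 1 match to each and the Sdhd stretch none. Of 32851 promoter stretches of this length, 6.02% hold CACGTG, 1.86% hold GGCGGGAA and 0.167% hold both. A match is a run of letters and not a shown site.

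A single feature of Esr1, the estrogen receptor alpha gene, stood apart from the other 11. It was at 3.46, 2.71, 2.98 and 1.31 on SDHD-ESR arrays, against -0.92, 0.08, -0.91 and -0.43 on +/- arrays, without overlap. Its mean of 2.62 was called against the pool (limma over 39253 features, of which 22.2% were called, adjusted p = 0.00348), while its difference from +/- did not pass adjustment (adjusted p = 0.268). The other 11 features ran from -0.31 to 0.03, and the mean of all features was 0.09 ± 0.31 in SDHD-ESR and 0.10 ± 0.16 in +/- (SD, n = 4 each). The Cre transgene of these mice contains sequence of an estrogen receptor, and whether this feature reads it was not tested.

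**Figure D2:**
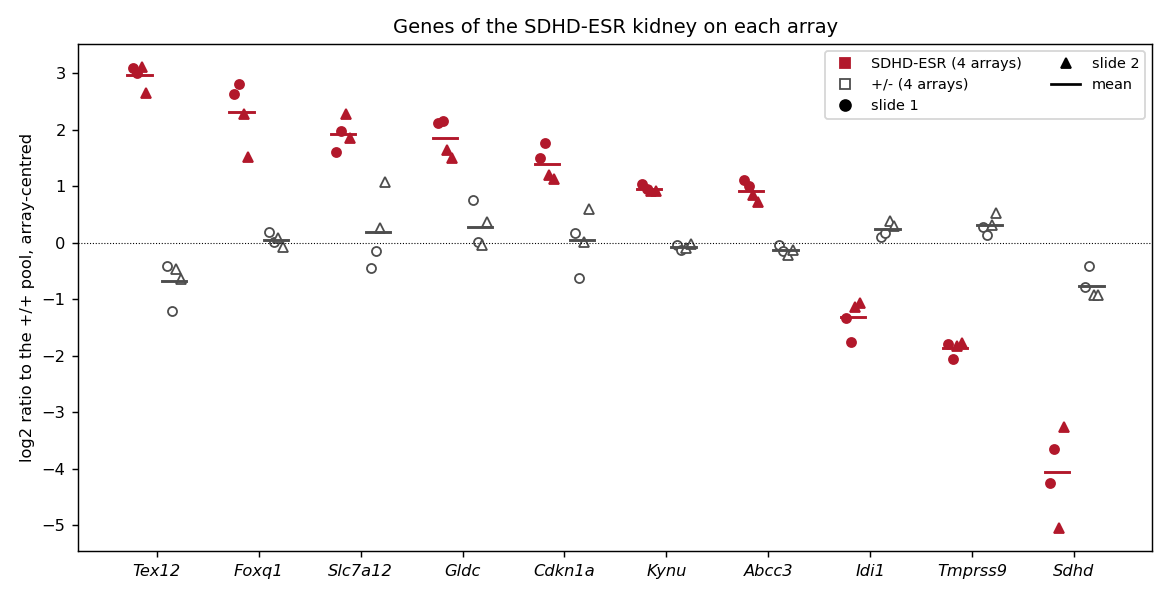
Log2 ratio to the +/+ pool (y axis, array medians at 0, dotted line at the pool) of 10 genes on each array, with SDHD-ESR (red, filled) left of +/- (grey, open), slide 1 as circles, slide 2 as triangles and bars at the means. SDHD-ESR and +/- arrays do not overlap in any of the 10 genes, with Tex12 at 2.65 to 3.11 in SDHD-ESR and Sdhd at -5.04 to -3.25. Most of these genes were picked for a large change or a small p against +/-, which favours such separation. Over all genes the groups did not overlap in 2.89% (higher in SDHD-ESR) and 2.80% (lower).

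The 12 largest rises had means from 1.45 to 2.96 and were led, after Tex12, by Foxq1, a forkhead transcription factor. It was at 2.63, 2.80, 2.27 and 1.52 in SDHD-ESR kidneys, against 0.19, 0.01, 0.07 and -0.07 in +/- kidneys. Every SDHD-ESR array was far above every +/- array, and the mean of 2.31 ± 0.57 (SD, n = 4) is 4.95-fold the pool (adjusted p = 0.00151, called with and without centring). Its difference from +/- of 2.26 ± 0.27 (SE) did not pass adjustment (adjusted p = 0.121). Slc7a12, an amino acid transporter that is higher in female than in male mouse kidney, was at 1.61, 1.98, 2.28 and 1.85 in SDHD-ESR and at -0.44, -0.15, 0.25 and 1.07 in +/-. Gldc, which decarboxylates glycine in the glycine cleavage complex, was at 2.11, 2.15, 1.65 and 1.49 in SDHD-ESR and at 0.75, 0.01, -0.03 and 0.37 in +/-. In both genes the groups did not overlap and the calls stood with and without centring (adjusted p = 0.00362 and 0.00193). Gm10639 (1.53 ± 0.27), a predicted gene, and Acnat2 (1.46 ± 0.41), an acyltransferase of fatty acids and amino acids, were also called in both forms, as was Cyp2b10 (1.45 ± 0.81, SD, n = 4 each), a drug-metabolizing cytochrome P450.

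Some of the 12 varied widely between arrays or lost the call without 1 of them. Radx, a single-strand DNA binding protein at replication forks, was at 4.39 on SDHD-ESR array 1 and at 1.31, 1.05 and 1.41 on the others. Usp53, a member of the ubiquitin protease family, was at 3.62, 1.18, 0.38 and 1.53, and Pprc1, a coactivator of nuclear genes for mitochondria, at 1.68, 0.53, 1.83 and 2.86. Pprc1 kept its call without any one SDHD-ESR array (adjusted p up to 0.0419). Radx kept it without replicate 1, at a mean of 1.26, but missed the threshold without SDHD-ESR replicates 2 or 4 (adjusted p up to 0.0551). Usp53 missed it without replicates 1, 2 or 4 (up to 0.0918), and Cyp2b10 without replicates 1 or 2 (up to 0.0590). Cxcl15, a chemokine (0.87 to 1.96), and Zcchc18, a zinc finger gene (0.77 to 2.18), missed it without replicates 1, 2 or 4 (up to 0.0877 and 0.0691). The Zcchc18 value is that of 1 of its 2 features, and the other, with values missing on some arrays, had a mean of -1.52 in SDHD-ESR. Usp53 was also lost without any one of the 4 +/- arrays (adjusted p from 0.0506 to 0.0576).

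The 12 largest falls held, besides Sdhd, a pair of secreted proteins made mainly in the liver, Saa2 and Mup9. Saa2, a serum amyloid A protein of the acute phase, was at -2.50, -3.84, -3.79 and -2.56 in SDHD-ESR and at -5.13, -6.59, -4.76 and -6.11 in +/-. It was thus 9.00-fold below the pool in SDHD-ESR, yet higher than in +/- on every array (difference 2.48 ± 0.51, SE, unadjusted p = 0.00148, adjusted p = 0.372). Mup9, a major urinary protein, was at -5.06, -3.20, -2.29 and -1.29 in SDHD-ESR and at -4.81 to -3.07 in +/-. The other 9 (Lcn9, Gm2030, Olfr923, Nfe2, Itgbl1, Fbxl12os, Psma8, Hsfy2 and Vmn1r68) had means from -3.91 to -2.76 with SDs from 1.47 to 2.81, and none of them was called without centring. Nfe2, an erythroid transcription factor, for instance stood at -1.20, -6.67, -1.99 and -3.08. All 9 missed the threshold when 1 SDHD-ESR array or another was left out (highest adjusted p from 0.0508 for Lcn9 to 0.134 for Gm2030). Gm2030, Olfr923 and Hsfy2 also missed it without 1 +/- array (adjusted p up to 0.0720, 0.0543 and 0.0654).

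The 10 genes of smallest p against +/- were chosen by a measure that favours a small spread. Kynu, the kynureninase of tryptophan breakdown, was at 1.03, 0.94, 0.92 and 0.91 in SDHD-ESR, against -0.04, -0.13, -0.09 and -0.03 in +/-. Its rise of 0.95 ± 0.06 (SD, n = 4), which is 1.94-fold the pool, varied little between arrays, and the difference from +/- was 1.03 ± 0.07 (SE, adjusted p = 0.00547). Tmprss9, a transmembrane serine protease, was at -1.79, -2.06, -1.83 and -1.77 in SDHD-ESR, against 0.27, 0.13, 0.32 and 0.52 in +/-. It fell to 27.5% of the pool (adjusted p = 0.000424), and differed from +/- by -2.17 ± 0.11 (SE, adjusted p = 0.00159). Kynu and Tmprss9 were called with and without centring against the pool.

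The next genes of that order did not pass adjustment against +/-. Abcc3, an efflux pump of organic anions, was at 1.10, 1.00, 0.85 and 0.72 in SDHD-ESR, against -0.03, -0.16, -0.21 and -0.12 in +/- (adjusted p = 0.0597 for the difference). Idi1, the isopentenyl diphosphate isomerase of cholesterol synthesis, was at -1.34, -1.76, -1.13 and -1.06 in SDHD-ESR, against 0.10, 0.18, 0.38 and 0.30 in +/- (adjusted p = 0.0728). Both sets of arrays were clearly apart, on opposite sides of the pool. Rdh16, a retinol dehydrogenase (1.12 ± 0.18), and Gm5678, a predicted gene (1.05 ± 0.13, SD, n = 4 each), completed the 10 together with Tex12, Sdhd, Foxq1 and Gm10639.

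Cdkn1a, the cyclin-dependent kinase inhibitor p21, rose 2.63-fold. It was at 1.49, 1.76, 1.21 and 1.12 on SDHD-ESR arrays, against 0.17, -0.63, 0.02 and 0.60 on +/- arrays. The groups did not overlap, while the +/- arrays themselves spread to both sides of the pool (mean 1.39 ± 0.29 in SDHD-ESR and 0.04 ± 0.51 in +/-, SD, n = 4 each; adjusted p = 0.00492 against the pool, called with and without centring; difference from +/- 1.35 ± 0.27, SE, adjusted p = 0.363). Of its 11 features, 10 that are annotated to the same transcript lay between 1.42 and 1.65, and the remaining one, annotated to another transcript, was at -0.15. RefSeq gives Cdkn1a 2 start sites, and the 250 bases before each are shown, since p21 is a classical target of p53, whose binding element is built from a pair of CATG cores. They are at chr17:29090729-29090978 and chr17:29093519-29093768 (GRCm38.p6, plus strand), and capitals mark a pair of CATG cores with 6 bases of any kind between them, searched on both strands after the sequences had been seen.
Cdkn1a, start site 1: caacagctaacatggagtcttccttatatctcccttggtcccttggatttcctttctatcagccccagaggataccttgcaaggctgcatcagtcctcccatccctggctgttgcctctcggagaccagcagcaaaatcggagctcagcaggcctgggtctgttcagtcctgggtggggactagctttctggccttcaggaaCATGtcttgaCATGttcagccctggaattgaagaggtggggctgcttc
Cdkn1a, start site 2: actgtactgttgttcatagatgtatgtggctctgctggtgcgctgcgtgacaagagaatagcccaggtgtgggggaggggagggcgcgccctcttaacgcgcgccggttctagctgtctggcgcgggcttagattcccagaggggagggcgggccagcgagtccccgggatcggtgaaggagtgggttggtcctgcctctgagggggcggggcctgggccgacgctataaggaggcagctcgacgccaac
The stretch of start site 1 holds 1 match and that of start site 2 none, and 0.490% of all promoter stretches of this length hold one.

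Other p53 targets had smaller values. Of 23 besides Cdkn1a, 7 were called higher (16.5% over all genes) and 1 lower (7.86%), with a median of 0.25 in SDHD-ESR and 0.13 in +/-. Mdm2, the ubiquitin ligase of p53, was at 0.47 ± 0.10 in SDHD-ESR and 0.32 in +/-, Ccng1 (cyclin G1) at 0.56 ± 0.23 and 0.28, and Trp53inp1, a p53-induced nuclear protein, at 0.41 ± 0.17 and 0.15 (SD, n = 4). The member that fell was Eda2r, a receptor of the TNF family (-1.46 ± 0.58 in SDHD-ESR and -1.14 in +/-), which missed the threshold without SDHD-ESR replicates 2 or 3 (adjusted p up to 0.0523).

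Most cell cycle genes fell. Of 31 tested, 18 were called lower (7.86% over all genes) and 1 higher, and the list median was -0.56, -0.71, -0.39 and -0.40 on the SDHD-ESR arrays, against -0.12, 0.10, -0.12 and -0.02 on the +/- arrays. Against +/- 15 members lay lower (unadjusted p of 0.05 or less) and 0 higher (background 3.82% and 4.02%), and 0 passed adjustment. Mki67, the Ki-67 antigen of dividing cells, was at -1.62, -2.77, -0.96 and -0.77 in SDHD-ESR, against -0.32, 0.05, -0.50 and -0.06 in +/-. The fall was deepest on slide 1, and the arrays of the groups did not overlap (adjusted p = 0.0129). Birc5, survivin, was at -0.88 ± 0.30 in SDHD-ESR and -0.15 in +/-, Mcm3, a subunit of the replicative helicase, at -0.82 ± 0.10 and -0.23, and the mitotic kinase Aurka at -0.80 ± 0.18 and -0.36 from 3 arrays (SD, n = 4). Ube2c, which feeds the anaphase-promoting complex, and Ccnd2, cyclin D2, were at -0.68 ± 0.28 and -0.52 ± 0.12 (SD, n = 4 each). Cdkn3, a phosphatase of cyclin-dependent kinases that is itself expressed in dividing cells, was lower too (-0.89 ± 0.22 in SDHD-ESR and -0.46 in +/-). Without centring 0 of the 31 were called, and markers of other cell types, given below, also lay below the pool. Their part in this result was not tested.

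**Figure D3:**
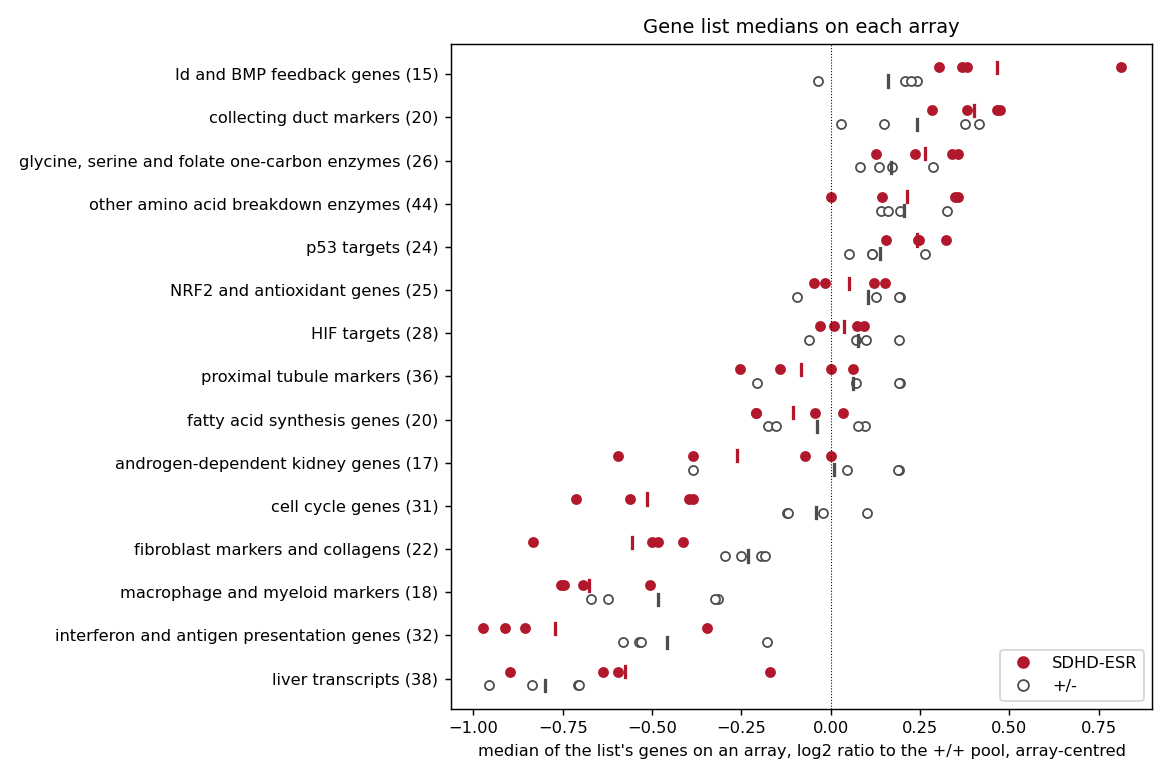
Median log2 ratio to the +/+ pool of the genes of 15 lists on each array (x axis, array medians at 0), with SDHD-ESR as filled red points above +/- as open grey points, bars at the means and the number of genes tested in parentheses. Cell cycle genes and fibroblast markers lie lower in all 4 SDHD-ESR arrays than in all 4 +/- arrays, while interferon genes and macrophage markers lie below the pool in both groups.

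Inhibitors of differentiation (Id) and the bone morphogenetic protein (BMP) pathway that induces them were followed as another list. Of 15 genes tested 7 were called higher and 0 lower (16.5% and 7.86% over all genes), and the list median was 0.81, 0.37, 0.30 and 0.38 in SDHD-ESR, against 0.21, -0.04, 0.24 and 0.23 in +/-. Among the Id proteins, which bind and block basic helix-loop-helix factors, Id1 was at 1.49, 1.76, 0.67 and 0.51 in SDHD-ESR, against -0.09, -0.31, 0.18 and -0.23 in +/-. It was high on all SDHD-ESR arrays and higher on slide 1 than on slide 2. Id3 was at 0.59 ± 0.31 in SDHD-ESR and 0.11 in +/-, Id4 at 0.84 ± 0.22 and 0.29, and Id2 at 0.81 ± 0.17 and 0.61 (SD, n = 4). Id1 and Id3 were called with and without centring (adjusted p = 0.0119 and 0.0122 after centring). Of the ligands, Bmp4 was at 0.80 ± 0.21 in SDHD-ESR and 0.39 in +/-, and Bmp6 at 0.59 ± 0.23 and 0.44. The Bmp4 value is that of 1 of its 2 features. The other, with values missing on some arrays, was at -2.08 in SDHD-ESR and called lower, so the direction of Bmp4 is unclear. Smad6, an inhibitor in the same pathway, was at 0.61 ± 0.22 and 0.27 and missed the threshold without SDHD-ESR replicates 1, 2 or 3 (adjusted p up to 0.0678). Against +/- 6 of the 15 lay higher (unadjusted p of 0.05 or less) and 0 lower.

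Feedback genes of growth hormone and insulin signalling rose in part. Cish, an inhibitor of cytokine signalling induced through STAT5, was at 1.91, 1.64, 1.23 and 0.71 in SDHD-ESR, against -0.77, 0.67, 0.06 and -0.57 in +/-. Socs2, an inhibitor of the growth hormone receptor, was at 1.51, 0.57, 1.20 and 1.28 in SDHD-ESR, against -0.27, 0.40, -0.42 and -0.12 in +/-. The groups did not overlap in either gene (adjusted p = 0.0127 and 0.00668), and Cish was called with and without centring. Irs2, the insulin receptor substrate, was at 0.94 ± 0.59 (SD, n = 4) and missed the threshold without SDHD-ESR replicates 1, 2 or 3 (adjusted p up to 0.0818), Foxo1, a transcription factor restrained by insulin, was at 0.47 ± 0.23, and Socs1, an inhibitor of interferon signalling, fell to -0.45 ± 0.08. In all 5 of 19 members were called higher and 1 lower (16.5% and 7.86% over all genes), with a median of 0.19 in SDHD-ESR and 0.02 in +/-.

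Enzymes of glycine, serine and folate metabolism were the metabolic list with the most rises for its size. Of 26 tested, 11 were called higher and 1 lower (16.5% and 7.86% over all genes), with a median of 0.32 in SDHD-ESR and 0.17 in +/-. Besides Gldc, members of the chain from betaine to glycine were called. Bhmt, which passes a methyl group from betaine to homocysteine, was at 1.67, 2.40, 0.78 and 0.52 in SDHD-ESR, against a mean of -0.36 in +/-. It moved with the slide in both groups and missed the threshold without SDHD-ESR replicates 1, 2 or 3 (adjusted p = 0.034 with all arrays and up to 0.107 without one). Dmgdh and Sardh, the mitochondrial dehydrogenases of dimethylglycine and sarcosine, were at 0.74 ± 0.14 and 0.37 ± 0.14 in SDHD-ESR, against 0.46 and 0.45 in +/-. Amt, the aminomethyltransferase that works with Gldc, was at 0.33 ± 0.06 in SDHD-ESR and 0.18 in +/- (SD, n = 4).

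Of 44 other enzymes of amino acid breakdown, 16 were called higher and 3 lower (16.5% and 7.86% over all genes). After Kynu the smallest p-values were those of Glud1, glutamate dehydrogenase (0.59 ± 0.08 in SDHD-ESR and 0.34 in +/-), and Ddc, the decarboxylase that makes dopamine (0.76 ± 0.16 and 0.35). Gpt2, the mitochondrial alanine aminotransferase, was at 0.70, 0.61, 0.67 and 0.92 in SDHD-ESR, against 0.23, -0.27, 0.19 and 0.10 in +/-, and Oat, ornithine aminotransferase, at 0.57 ± 0.11 and 0.26 (SD, n = 4). Arg1, the arginase of the liver urea cycle, fell to -2.51 ± 1.02 in SDHD-ESR and lay at -1.96 in +/-. For these enzymes the list median was 0.26 in SDHD-ESR and 0.18 in +/-, and 5 members lay higher and 3 lower than in +/- at an unadjusted p of 0.05 or less.

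Antioxidant genes and glutathione transferases, many of them targets of NRF2, were called higher in 10 of 25 and lower in 0 (16.5% and 7.86% over all genes). Gsta2, a glutathione transferase, was at 0.99, 1.16, 0.86 and 1.18 in SDHD-ESR, against 0.45, 0.52, 0.19 and 0.51 in +/-, which is 2.07-fold the pool in SDHD-ESR (adjusted p = 0.00142, called with and without centring). Nqo1, a quinone reductase, was at 0.95, 1.26, 0.50 and 0.77 in SDHD-ESR, against 0.08, 0.22, 0.52 and 0.43 in +/-, and overlapped by a single +/- array. Srxn1, sulfiredoxin, was at 0.59 ± 0.05 in SDHD-ESR and 0.26 in +/-, Gsta3 at 0.56 ± 0.06 and 0.24, and Cat, catalase, at 0.58 ± 0.07 and 0.49 (SD, n = 4). In 11 of the 25 genes a feature lay near 0 in the table, and the list median was 0.11 in SDHD-ESR and 0.07 in +/-. Without features near 0 the SDHD-ESR median of 16 genes was 0.43. Among enzymes and transporters of drugs, 7 of 38 were called higher and 3 lower, which is close to the 16.5% and 7.86% over all genes, with Sult1d1, a sulfotransferase (0.79 ± 0.24), and Abcc4, an efflux pump (0.69 ± 0.13, SD, n = 4 each), after Abcc3.

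Targets of hypoxia-inducible factor (HIF), which succinate can stabilize by inhibiting prolyl hydroxylases, were called about as often as genes in general. Of 28 tested 5 were called higher, close to the 16.5% over all genes, and 0 lower, and the median was -0.03 in SDHD-ESR and 0.11 in +/-. In 7 of the 28 a feature lay near 0, and without such features the SDHD-ESR median of 24 genes was 0.07. Slc2a1, the glucose transporter GLUT1, was at 0.80, 1.02, 0.58 and 0.63 in SDHD-ESR, against 0.38, 0.21, 0.56 and 0.64 in +/-. Vegfa, vascular endothelial growth factor, was at 0.36 ± 0.13 in SDHD-ESR and 0.37 in +/-, so both stood above the pool. Pdk1, the kinase that shuts pyruvate dehydrogenase, was at 0.47, 0.77, 0.37 and 0.26 in SDHD-ESR, against -0.18, 0.34, -0.16 and -0.05 in +/-. The peptide hormone Adm (0.36 ± 0.10) and the histone demethylase Kdm3a (0.27 ± 0.15, SD, n = 4 each) were the other 2. Of the 5, Adm, Pdk1 and Kdm3a missed the threshold when 1 SDHD-ESR array was left out, Adm without replicates 1 or 4 (adjusted p up to 0.0599) and Pdk1 and Kdm3a without replicates 1, 2 or 3 (up to 0.0784 and 0.115; Kdm3a also without +/- replicates 1 or 3, up to 0.0516), and 0 were called without centring. Several of these genes were chosen by the study as hypoxia markers, so they are not independent evidence on their direction.

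Of 20 enzymes of the Krebs cycle other than complex II, 5 were called higher (16.5% over all genes) and 0 lower. The list median was -0.11 in SDHD-ESR and 0.01 in +/-, 15 of the 20 lay below +/-, and 11 had a feature near 0. Without features near 0 the SDHD-ESR median of 11 genes was 0.22. Suclg2, a subunit of the succinyl-CoA ligase that makes succinate, was at 0.83, 0.71, 0.36 and 0.67 in SDHD-ESR, against 0.33, 0.30, 0.42 and 0.19 in +/-. Fh1, the fumarase that takes up the product of complex II, was at 0.44 ± 0.10 in SDHD-ESR and 0.26 in +/-, and Idh3a, of isocitrate dehydrogenase, at 0.41 ± 0.10 and 0.54 (SD, n = 4). Idh1, the cytosolic isocitrate dehydrogenase, was called at 0.28 ± 0.17 but missed the threshold without any one array of either group (adjusted p from 0.0538 to 0.135). Of 26 genes of glycolysis and gluconeogenesis 6 were called higher (16.5% over all genes) and 0 lower, with a list median of -0.09 in SDHD-ESR and -0.01 in +/- and 16 of the 26 below the pool. In 12 of the 26 a feature lay near 0, and without such features the SDHD-ESR median of 18 genes was 0.13. Those called were led by Pdk2 (0.66 ± 0.18), another kinase of pyruvate dehydrogenase, and the hexokinase Hk1 (0.43 ± 0.08, SD, n = 4 each). Of the subunits of complex I, 4 of 28 were called higher, led by Ndufs4 (0.30 ± 0.07 in SDHD-ESR and 0.32 in +/-), and of complexes III to V 2 of 29. None of these subunits was called lower, but in 21 of the 28 and 27 of the 29 genes a feature lay near 0, and the list medians were -0.17 and -0.30 in SDHD-ESR, against -0.05 and -0.06 in +/-. Without features near 0 the SDHD-ESR medians were 0.26 over 11 genes and 0.18 over 8.

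Mitochondrial protein quality control and fatty acid oxidation did not stand above +/- by their medians (0.18 and 0.04 in SDHD-ESR, against 0.19 and 0.12 in +/-). In 3 of the 13 and 13 of the 34 genes a feature lay near 0, and centring puts such features lower in SDHD-ESR than in +/- on average. Without them the SDHD-ESR medians were 0.18 over 10 genes and 0.12 over 24. Of 13 quality control genes 5 were called higher (16.5% over all genes), such as Pink1, a kinase that marks damaged mitochondria (0.48 ± 0.10 in SDHD-ESR and 0.29 in +/-), and Clpx, of the matrix protease ClpXP (0.41 ± 0.18 and 0.34). Clpx missed the threshold without SDHD-ESR replicates 2 or 4 (adjusted p up to 0.0545). Of 34 genes of fatty acid oxidation 7 were called higher and 1 lower, with 23 of the 34 below +/-, and among those called higher were Ppara, the nuclear receptor of that pathway (0.54 ± 0.19 and 0.33), and its target Vnn1 (0.46 ± 0.16 and 0.40). Of 26 genes of ATF4 and the unfolded protein response 4 were called higher and 2 lower, close to the 16.5% and 7.86% over all genes, led by Xbp1, a transcription factor of the unfolded protein response (0.52 ± 0.11 in SDHD-ESR and 0.22 in +/-, SD, n = 4).

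Of 20 genes of fatty acid synthesis 6 were called lower (7.86% over all genes) and 2 higher, and the list median was -0.10 in SDHD-ESR and -0.06 in +/-. Scd1, the stearoyl-CoA desaturase, was at -1.62, -1.29, -1.93 and -1.65 in SDHD-ESR, against -0.77, 0.08, -0.59 and -0.96 in +/- (adjusted p = 0.00295, called with and without centring). Fasn, fatty acid synthase, was at -2.12, -2.06, -1.29 and -0.88 in SDHD-ESR, against -0.35, 0.11, -0.00 and -0.80 in +/-, and Thrsp, which promotes lipogenesis, at -1.86, -1.65, -1.41 and -0.97 in SDHD-ESR, against -0.47, 0.03, 0.06 and -0.98 in +/-. The groups did not overlap in Scd1 and Fasn, whereas +/- array 4 was as low as the highest SDHD-ESR array for Thrsp. Acaca, acetyl-CoA carboxylase, was at -0.88 ± 0.46 in SDHD-ESR and -0.53 in +/-, and Elovl5, an elongase of polyunsaturated fatty acids, rose to 0.34 ± 0.02 but lay at 0.49 in +/- (SD, n = 4). Plin1, which coats the lipid droplets of fat cells, was at -1.13 ± 0.31 in SDHD-ESR and -0.69 in +/-, and 5 of 13 fat tissue markers were called lower and 0 higher. The part of fat cells in the lower lipogenic genes was not tested. In cholesterol synthesis, 2 of 19 genes were called lower, Idi1 and the reductase Dhcr7 (-0.34 ± 0.09 in SDHD-ESR and 0.11 in +/-), and 1 higher, the sterol reductase Tm7sf2 (0.32 ± 0.18, SD, n = 4), which missed the threshold without SDHD-ESR replicates 1 or 2 (adjusted p up to 0.0667).

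**Figure D4:**
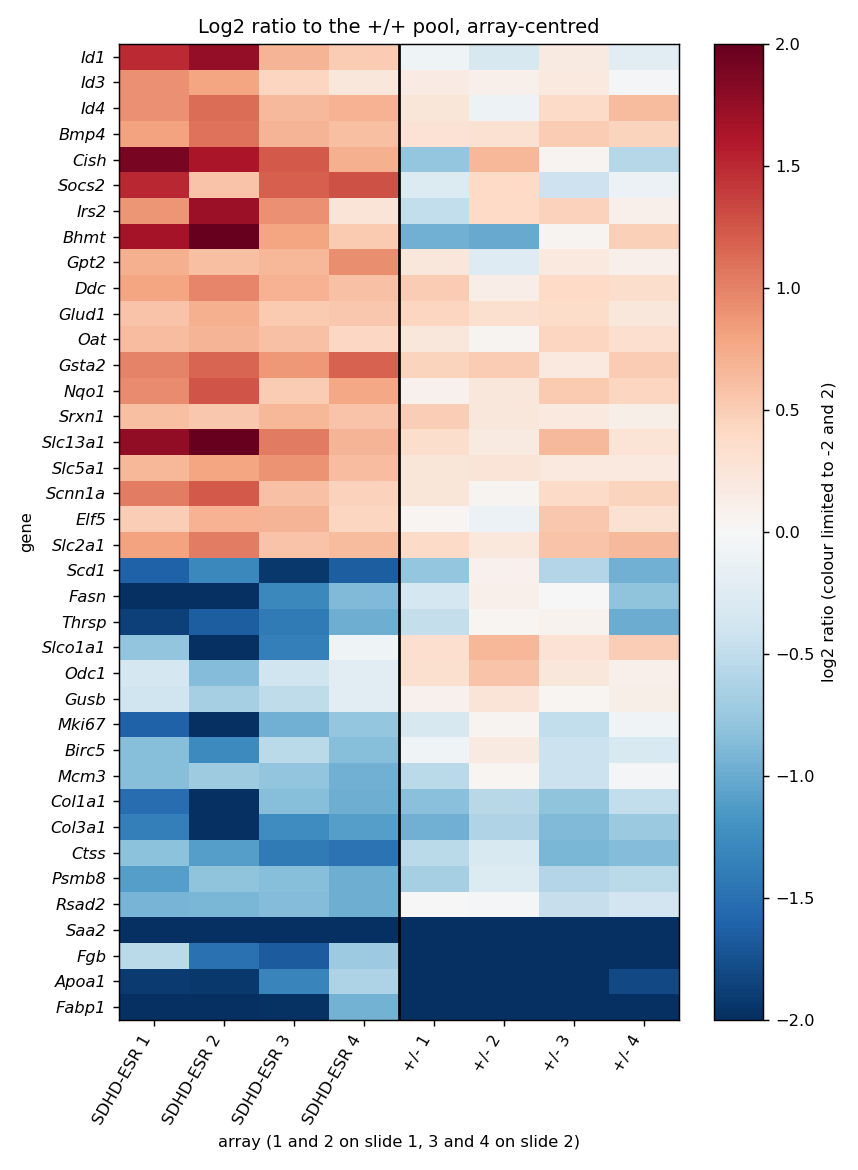
Log2 ratio to the +/+ pool (colour, red above and blue below, limited to -2 and 2) of 38 genes on the 4 SDHD-ESR arrays (left) and the 4 +/- arrays (right of the black line), array medians at 0. Scd1 is at -1.93 to -1.29 in SDHD-ESR and -0.96 to 0.08 in +/-, whereas Fabp1 and Saa2 at the foot are low in both groups.

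Nephron markers were followed by segment. In 22 of 36 proximal tubule genes, the defining markers Slc34a1, Lrp2, Slc5a2, Slc22a6 and Kap among them, a feature lay near 0, as did that of Umod, the defining marker of the thick ascending limb. A ratio also gives no level, so the presence of these cells could not be checked from the markers. Of the 36, 8 were called higher (16.5% over all genes) and 0 lower, and the list median was -0.07 in SDHD-ESR and 0.10 in +/-. Without features near 0 the SDHD-ESR median of 16 genes was 0.50. Slc13a1, the sodium sulfate cotransporter, was at 1.78, 2.00, 1.04 and 0.68 in SDHD-ESR, against 0.35, 0.17, 0.65 and 0.27 in +/- (adjusted p = 0.00665, called with and without centring). Slc5a1, the sodium glucose cotransporter of the late proximal tubule, was at 0.66, 0.80, 0.90 and 0.61 in SDHD-ESR, against 0.24, 0.27, 0.19 and 0.19 in +/-. The groups did not overlap in either gene. Slc4a4, which returns bicarbonate to the blood, was at 0.63 ± 0.04 in SDHD-ESR and 0.38 in +/-, Slc6a18, a transporter of neutral amino acids, at 0.51 ± 0.20 and 0.22, and Slc7a9, of the cystine transporter, at 0.50 ± 0.10 and 0.45 (SD, n = 4).

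In the collecting duct 10 of 20 genes were called higher (16.5% over all genes) and 0 lower, with a median of 0.39 in SDHD-ESR and 0.26 in +/-. Scnn1a, the alpha subunit of the epithelial sodium channel, was at 1.02, 1.22, 0.58 and 0.47 in SDHD-ESR, against 0.25, 0.05, 0.39 and 0.44 in +/- (called with and without centring). Rhcg, an ammonia channel, was at 0.55 ± 0.12 in SDHD-ESR and 0.32 in +/-, Avpr2, the vasopressin receptor, at 0.55 ± 0.09 and 0.28, and Elf5, a transcription factor of principal cells, at 0.58 ± 0.13 and 0.19 (SD, n = 4). Slc4a9, an anion exchanger of intercalated cells, was at 0.44 ± 0.10 in SDHD-ESR and 0.36 in +/-. Aqp2, the water channel that defines the principal cell, was not called, with 0.74, 0.24, -0.24 and -0.23 in SDHD-ESR. In the loop of Henle and distal tubule 5 of 22 genes were called higher, not far from the 16.5% over all genes, and 0 lower, with a median of 0.10 in SDHD-ESR and 0.05 in +/-. Of 11 podocyte and glomerular genes 1 was called higher and 0 lower, with a median of 0.08 in SDHD-ESR and 0.21 in +/-. Slc12a3, the thiazide-sensitive cotransporter of salt, was at 0.42, 0.44, 0.50 and 0.46 in SDHD-ESR, against -0.19, 0.00, 0.26 and 0.22 in +/-, without overlap, and its regulator Wnk4 at 0.44 ± 0.19 and 0.24 (SD, n = 4).

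Among genes that differ between male and female kidneys, androgen-dependent ones were lower and female-biased ones higher where they were called. Of 17 androgen-dependent genes 4 were called lower and 0 higher (7.86% and 16.5% over all genes), and 11 of the 17 had a feature near 0. Slco1a1, an organic anion transporter, was at -0.80, -2.82, -1.37 and -0.09 in SDHD-ESR, against 0.34, 0.66, 0.30 and 0.50 in +/-. Gusb, beta-glucuronidase, was at -0.45 ± 0.18 in SDHD-ESR and 0.13 in +/-, Odc1, ornithine decarboxylase, at -0.46 ± 0.28 and 0.30, and Slc7a13, an amino acid transporter, at -0.27 ± 0.09 and 0.29 (SD, n = 4). All 4 genes lay below the pool in SDHD-ESR and above it in +/-, without overlap. Without any one of SDHD-ESR replicates 1 to 3 the call was lost for Slco1a1, Odc1 and Slc7a13 (adjusted p up to 0.114, 0.0728 and 0.107), for Slc7a13 also without SDHD-ESR replicate 4 or +/- replicate 2 (0.0618 and 0.0531) and for Slco1a1 without any +/- array (0.0650 to 0.0657), and Slc7a13 lay at 0.05 without centring. Among 9 female-biased genes 3 were called higher (16.5% over all genes) and 0 lower, namely Slc7a12, Abcc3 and Gstp1, a glutathione transferase (0.54 ± 0.03 in SDHD-ESR and 0.37 in +/-). As a list they did not stand above +/-, since 5 of the 9 lay below it. Their median was 0.52, 0.50, -0.03 and -0.34 on the SDHD-ESR arrays, against 0.19, 0.19, 0.03 and -0.12 on the +/- arrays. In 3 of the 9 a feature lay near 0, and without such features the SDHD-ESR median of 6 genes was 0.73. All mice received tamoxifen, which acts on estrogen receptors, the pool included.

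Most connective tissue genes lay below the pool. Of 22 fibroblast markers and collagens 14 were called lower and 1 higher (7.86% and 16.5% over all genes), and the list median was -0.41, -0.83, -0.48 and -0.50 in SDHD-ESR, against -0.25, -0.20, -0.18 and -0.30 in +/-. Col1a1, a chain of collagen I, was at -1.53, -2.50, -0.84 and -0.98 in SDHD-ESR, against -0.83, -0.55, -0.81 and -0.50 in +/-, and Col3a1, of collagen III, at -1.37, -2.44, -1.24 and -1.11, against -0.96, -0.61, -0.88 and -0.74. SDHD-ESR array 2 was the lowest in both. Col1a2 was at -0.93 ± 0.42 in SDHD-ESR and -0.35 in +/-, Col5a1 at -0.69 ± 0.21 and -0.23, and Fap, a protease of activated fibroblasts, at -0.86 ± 0.08 and -0.64 (SD, n = 4). Against +/- 6 of the 22 lay lower (unadjusted p of 0.05 or less) and 0 higher.

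Most macrophage and interferon genes lay below the pool, and their list medians did so in both groups. Of 18 macrophage genes 12 were called lower and 0 higher (7.86% and 16.5% over all genes), with a median of -0.71 in SDHD-ESR and -0.51 in +/-. C1qa, C1qb and C1qc, which form complement C1q, were at -0.95 ± 0.40, -0.61 ± 0.12 and -0.75 ± 0.17 in SDHD-ESR, against -0.72, -0.52 and -0.54 in +/-. Ctss, the lysosomal cathepsin S, was at -1.20 ± 0.30 and -0.66 and was called with and without centring, Fcer1g, an adaptor of Fc receptors, at -0.65 ± 0.13 and -0.36, and Laptm5, a lysosomal protein of blood cells, at -0.74 ± 0.21 and -0.69 (SD, n = 4). Cd68, a defining marker, was not called (-0.54, 0.30, -1.04 and -0.02 in SDHD-ESR). Of 16 lymphocyte genes 3 were called lower, Gzmb, a granzyme, among them (-1.13 ± 0.43 in SDHD-ESR and -0.45 in +/-), whereas Cd3e, which defines T cells, was at 0.04 ± 0.08 and 0.05. Gzmb missed the threshold without SDHD-ESR replicates 2 or 3 (adjusted p up to 0.0600).

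Of 32 genes of interferon response and antigen presentation 23 were called lower and 0 higher, the highest share called lower among the lists, beside 7.86% over all genes. Their median was -0.91, -0.35, -0.85 and -0.97 in SDHD-ESR, against -0.58, -0.18, -0.54 and -0.53 in +/-. Array 2 stood nearest to the pool in each group. Rsad2, viperin, an antiviral enzyme, was at -0.94, -0.92, -0.86 and -0.98 in SDHD-ESR, against -0.00, -0.04, -0.46 and -0.38 in +/-. Psmb8 and Psmb9, subunits of the immunoproteasome, were at -0.93 ± 0.13 and -0.90 ± 0.19 in SDHD-ESR, against -0.51 and -0.40 in +/-, and Ifit2 and Igtp, induced by interferon, at -0.82 ± 0.18 and -1.33 ± 0.24, against -0.50 and -1.11 (SD, n = 4 each). Since all arrays shared 1 pool, a value below 0 in both groups cannot be told apart from a high level in the pool. None of the 32 was called without centring.

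Endothelial genes were mixed against the pool, with 1 called higher and 2 lower of 13 (16.5% and 7.86% over all genes). Their median was -0.13 in SDHD-ESR and 0.09 in +/-, and 10 of the 13 lay below +/-. At an unadjusted p of 0.05 or less 4 lay lower than in +/- and 0 higher (background 3.82% and 4.02%), and 0 passed adjustment. Pecam1, of endothelial junctions, was at 0.29 ± 0.07 in SDHD-ESR and 0.28 in +/-, and Tek, the receptor of angiopoietins, at -0.14, -0.37, -0.41 and -0.45 in SDHD-ESR, against 0.22, 0.23, 0.02 and -0.09 in +/-. Pecam1 was lost without any one SDHD-ESR array (adjusted p up to 0.0916) and Tek without replicates 2, 3 or 4 (up to 0.0756). Markers of tubular injury gave no rise, with 1 of 21 called higher and 9 lower (16.5% and 7.86% over all genes). Cd44, an adhesion receptor, was at -0.83 ± 0.03 in SDHD-ESR and -0.95 in +/-, Timp1, an inhibitor of metalloproteinases, at -1.35 ± 0.53 and -1.49, Gpnmb, a glycoprotein of phagocytes, at -2.10 ± 1.01 and -1.74, and the filament protein Vim at -0.47 ± 0.22 and -0.18. The keratin Krt8 was the 1 that rose (0.34 ± 0.15 and 0.26, SD, n = 4), and missed the threshold without SDHD-ESR replicates 1 or 2 (adjusted p = 0.0547 for each).

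Acute phase genes ran both ways. Of 31 tested 6 were called higher and 8 lower (16.5% and 7.86% over all genes), with a median of 0.08 in SDHD-ESR and -0.26 in +/-, and 13 lay higher than in +/- (unadjusted p of 0.05 or less) and 0 lower. Saa1 was at -1.19, -1.39, -1.35 and -1.07 in SDHD-ESR, against -1.56, -1.46, -1.47 and -1.46 in +/-, and Saa3 at -2.42 ± 0.78 and -2.20. Orm1 and Orm2, the acid glycoproteins, were at -1.80 ± 0.88 and -1.89 ± 0.74 in SDHD-ESR, against -1.42 and -1.43 in +/-. Serum amyloid and acid glycoprotein transcripts thus lay below the pool in both groups, while the fibrinogen chains differed from each other. Fga was at 2.02, 2.04, 0.45 and 0.47 in SDHD-ESR, high on slide 1 only, and near the pool in +/- (-0.01 to 0.17), and Fgb was at -0.54, -1.49, -1.67 and -0.73 in SDHD-ESR, against -2.71, -3.81, -2.47 and -2.12 in +/-. Fga missed the threshold without SDHD-ESR replicates 1 or 2 (adjusted p up to 0.0746) and Fgb without replicates 2, 3 or 4 (up to 0.107). Nfil3, a transcriptional repressor induced by cytokines, was at 2.07, 1.16, 0.88 and 0.52 in SDHD-ESR, against 0.33, -0.37, -0.20 and 0.07 in +/-, and was called with and without centring. Dbp, a clock factor that binds the same sites as Nfil3, was at -0.73, -0.51, -1.81 and -1.40 in SDHD-ESR and -0.33 in +/-, with both of its features near 0 on at least 2 arrays, and missed the threshold without SDHD-ESR replicate 4 (adjusted p = 0.0588). The study named many of the acute phase genes from these samples, so their direction is not independent evidence.

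Transcripts of the liver moved with single arrays. Of 38 tested 18 were called lower and 2 higher (7.86% and 16.5% over all genes), with medians of -0.64, -0.59, -0.90 and -0.17 on SDHD-ESR arrays, against -0.71, -0.70, -0.84 and -0.96 on +/- arrays. Alb, serum albumin, was at -3.51, -3.29, -1.57 and 0.06 in SDHD-ESR, against -3.62, -3.27, -3.79 and -2.53 in +/-, so that SDHD-ESR arrays 3 and 4 stood above the other 6. Fabp1, the fatty acid binding protein of the liver, ran in parallel (-3.67, -3.52, -1.98 and -0.95 in SDHD-ESR, against -4.93 to -2.75 in +/-), as did the apolipoprotein Apoa1 (-1.91, -1.92, -1.32 and -0.61, against -2.42 to -1.80). Rbp4, which carries retinol, was at -1.67 ± 0.45 in SDHD-ESR and -1.12 in +/-, and the cytochrome Cyp2c29 at -0.60 ± 0.24 and -0.71. Apoc3, an inhibitor of lipoprotein lipase, rose to 1.30 ± 0.20 and lay at 0.71 in +/- (SD, n = 4; called with and without centring). Alb missed the threshold without SDHD-ESR replicates 1, 2 or 3 (adjusted p up to 0.115) or +/- replicates 1, 2 or 3 (up to 0.0525), and Fabp1 without SDHD-ESR replicate 2 (0.0518). Genes of other nearby or surrounding tissue were also low, such as Cyp11b1, which makes corticosterone in the adrenal cortex (-0.93 ± 0.16 in SDHD-ESR and -1.11 in +/-). Markers of skeletal muscle had a median of 1.16 on SDHD-ESR array 1 and of -1.16, -1.32 and -1.39 on the other SDHD-ESR arrays, with Acta1, skeletal actin, at 1.94 on array 1 and -2.18 to -2.05 on the rest. How far such tissue enters the values of the acute phase, lipid and stroma genes was not tested.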

How the data were processed

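The authors hybridized 200 ng of kidney RNA per array, with Cy5 for the mutant or +/- RNA, Cy3 for the +/+ pool and no dye swap. They used a GenePix scanner and Multi-Experiment Viewer. The deposited values are of mixed kind (other than 1 unit): most are log2 ratios of the channels, and 9.05% are whole numbers, set missing here. Normalization is not given in the sources used here, and the dye wavelengths in the methods are swapped. The table's feature order was inferred, not taken from a key: under it, spots of accessions with at least 10 spots had an intraclass correlation of 0.487 to 0.672 per array, against -0.017 to 0.002 for plain numbering. Of 45220 features 33026 had 1 gene symbol and 12194 none. The sign was turned by the Sdhd feature.

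Arrays were centred on their median and features averaged per gene (20462 genes with at least 3 values per group, 18631 with all 8). Where a gene had a feature with values on all 8 arrays, its features with missing values were left out. Gene values were fitted with limma 3.58.1 (R 4.3.3), with a mean per group over all 8 arrays and 1.5 prior degrees of freedom. Adjustment was by Benjamini-Hochberg, with a threshold of 0.05. A feature near 0 lay within 0.01 of 0 before centring on at least 2 arrays (1725 features). On those arrays centring moves it to about the array median with its sign turned. List medians without such features are given for SDHD-ESR only. Nothing says whether RNA of the 2 mice on an array came from separate extractions, so p-values measure the spread between arrays, and the number of arrays limits their precision. In simulated data 70.0%, 88.5% and 92.5% of 200 genes changed by 1, 2 and 3 (log2) against the pool were recovered among 20462 genes. The noise was normal and independent between genes and arrays, and all other genes were unchanged. No shift of arrays or slides and no error of the pool was put in, so these shares need not hold for the real arrays.

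Named genes were the 12 largest rises and 12 largest falls called with the same sign on the 4 SDHD-ESR arrays and values on all 8, the 10 called genes of smallest p against +/-, complex II, Esr1, Cdkn1a and genes near Sdhd, and up to 5 members of smallest p and a defining marker per list. Id3, Smad6, Bhmt, Arg1, Mki67, Orm1, Fga and Fgb were added with their values already seen. The members and the gene lists, drawn from textbook knowledge after reading the paper, were chosen with earlier results of these data known. Lists were described by counts and medians. Alternatives left out 1 array at a time, the centring, features near 0 or genes with missing values, kept whole numbers up to 8, scaled the spread of arrays, blocked slide or replicate number, used robust moderation, SDHD-ESR arrays alone or single features.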

Additional observations from a re-analysis of the deposited data

Results flagged for a closer look

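Genes whose ratio to the pool differed between SDHD-ESR and +/- after adjustment over all genes were Tex12 (difference 3.65), Kynu (1.03) and Tmprss9 (-2.17).

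In 164 named genes, 328 groups of 4 arrays were checked for 1 array far from the other 3 (Dixon's test at 95%), and 13 were marked, where chance marks about 1 group in 20. In SDHD-ESR these were Radx at 4.39 on an array with the others at 1.05 to 1.41, Gm2030 at -6.96 beside -2.41 to -1.91, Col1a2 at -1.56 beside -0.78 to -0.65, Rbp4 at -1.003 beside -1.94 to -1.79, Acta1 at 1.94 beside -2.18 to -2.05, and at smaller sizes Gm5678 (1.24), Sdhaf4 (0.47), Idh1 (0.53) and Ppara (0.82). In +/- they were Pprc1 at -0.45 beside 0.26 to 0.40, Esr1 (-0.14), Adm (-0.10) and Saa1 (-1.56).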

How the results depend on the processing

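Counts of genes called against the pool, 3369 higher and 1608 lower, were 91 and 23 as deposited, 988 and 756 from SDHD-ESR arrays alone, and 5672 and 3031 for single features. With a replicate block 1953 were called higher and 1209 lower. Same-numbered arrays of the groups, which also share a slide, deviated together little or not at all (r from -0.018 to 0.075). The sources used here give no other link between them. Leaving out 1 SDHD-ESR array gave 1758 to 1989 higher and 854 to 968 lower, and leaving out 1 +/- array 2954 to 3012 and 1429 to 1503. For SDHD-ESR minus +/-, 3 genes were called, and 0 with the replicate block (limma, where 1746 had an unadjusted p up to 0.05, against 1604 with no block), 5 with slide as a block, 5 over genes with all values, 6 as single features, and 2 to 4 without 1 array. The cause of these shifts was not tested, except that fewer arrays leave fewer degrees of freedom.

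Of 155 called genes followed by name, 126 missed the threshold as deposited, 58 from SDHD-ESR arrays alone, 23 with the replicate block, 8 with arrays scaled to one spread and 0 of 154 with features near 0 left out. As deposited, Slc7a13 lay at 0.047, Sdhb at 0.035, Timm8b at 0.10 and Sdhc at 0.31, above the pool. Sdhc was also above it with features near 0 left out (0.31), and with arrays scaled (0.0071). Leaving out 1 SDHD-ESR array moved Sdhc between -0.067 and 0.11, Esr1 between -0.0064 and 0.19 and Aqp2 between -0.076 and 0.25, none of them called. Without 1 SDHD-ESR array 37 of the 155 lost the call, and without 1 +/- array 9. The signal of the spots over background is not known here.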
